A study of Mus musculus with 9 samples.

Results

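Transcription and H3K27me3 were examined for 10 genes of bone morphogenetic protein (BMP) signalling in mouse duodenal organoid cultures. The set held the ligand genes Bmp2, Bmp4 and Bmp7, the receptor genes Bmpr1a and Bmpr2, the inhibitory Smad genes Smad6 and Smad7, and the Id genes Id1, Id2 and Id3. They were taken by gene symbol from the 24505 genes of the deposited GRO-seq table, and by the name of the nearest gene from 2 deposited tables of H3K27me3 regions. All 10 had a row in the GRO-seq table and 9 of them passed the filter on low values that 16563 genes passed, with all 6 libraries at or above its minimum. Bmp4 did not. The region tables assigned 21 of 35798 RANKL-higher regions and 15 of 13607 WENRC-higher regions to these genes.

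BMP ligands are secreted dimers that assemble type I receptors such as BMPR1A with type II receptors such as BMPR2. The active receptors phosphorylate SMAD1, SMAD5 and SMAD8, which enter the nucleus with SMAD4 and bind target genes. SMAD6 and SMAD7 are themselves products of target genes and restrain the pathway at the receptor, and ID proteins are target gene products that lack a DNA-binding domain and hold E proteins off DNA. In the intestine BMP signalling is strong along the villus and is held low at the crypt base, where antagonists from the stroma protect the stem cells.

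The study compared organoid (mini-gut) cultures from mouse duodenum under 3 culture names, which the labels do not spell out. RANKL cultures are labelled as intestinal M cells, the antigen-sampling cells over lymphoid follicles, ENRI cultures as enterocytes and WENRC cultures as intestinal stem cells. Nascent transcription was measured by GRO-seq, which labels RNA in isolated nuclei as it is made, in 2 libraries per culture. The trimethylated histone mark H3K27me3, laid down by Polycomb repressive complex 2, was mapped by ChIP-seq, with 2 libraries of RANKL and 1 of WENRC. ENRI and WENRC libraries carry the same mouse numbers 1 and 2, whereas the RANKL libraries carry no mouse number. The labels give no genotype, strain, age or sex for any culture, and do not say that the RANKL libraries came from separate cultures, so p-values measure the spread between these libraries, which may be technical.

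GRO-seq levels below are the deposited normalised log2 values, which are not divided by gene length. A difference is a log2 difference of culture means with its standard error (SE), tested with limma across all 16563 genes and called at a Benjamini-Hochberg adjusted p under 0.05. Replicates differed less in RANKL (SD of the difference between the 2 libraries across genes 0.22) than in WENRC (0.421) or ENRI (0.699). The RANKL columns are named as combined sequencing runs in the file headers, so culture and sequencing batch cannot be told apart for RANKL. Marker genes followed the labels in part. The summed level of 7 M cell markers was 12.22 to 12.37 in RANKL, 7.89 to 9.61 in ENRI and 8.96 to 9.12 in WENRC. Stem cell markers (5 genes) summed to 13.14 to 13.26 in RANKL, 13.70 to 13.79 in WENRC and 10.83 to 11.31 in ENRI. The stem cell marker Lgr5 did not follow that sum in RANKL: it was at 8.75 and 8.84 there, beside 8.89 and 8.51 in ENRI and 11.64 and 11.99 in WENRC. The 8 enterocyte markers summed to 14.49 to 14.64 in RANKL, 15.53 to 16.33 in ENRI and 11.37 to 12.75 in WENRC. Sis carried most of that sum in RANKL, at 13.79 and 13.82, beside 12.11 and 10.66 in WENRC. Alpi, Apoa1 and Apoa4 also lay above WENRC in RANKL, whereas Fabp1, Fabp2, Lct and Rbp2 did not lie above both WENRC libraries. Goblet markers (4 genes) summed to 13.56 to 13.60, 13.23 to 13.78 and 10.60 to 11.75 in RANKL, ENRI and WENRC. The 3 enteroendocrine markers, at 10.39 to 10.84 in RANKL, 8.95 to 9.84 in ENRI and 8.69 to 9.54 in WENRC, were higher in RANKL. The mean level was also highest in RANKL for 8 of the 9 tested genes of the set, though not all of these were called. The part of other cell types in the results was not tested. In such bulk cultures a smaller share of expressing cells and less RNA per cell cannot be told apart.

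Against ENRI, 6 of the 9 tested genes were called higher in RANKL (Bmp2, Bmp7, Smad6, Smad7, Id2 and Id3), none was called lower and 3 were not called, where 10.4% of all tested genes were called higher and 20.9% were called in either direction. Against WENRC, 4 were called higher (Bmp2, Smad6, Smad7 and Id3), none lower and 5 were not called, beside 8.53% of all genes called higher and 12.1% in either direction. These 4 genes were higher in RANKL than in both other cultures, as were 4.99% of all tested genes. The shares over all genes take in genes that passed the filter on low values through the RANKL libraries alone. Their number was not counted. The median difference of the 9 genes was 1.22 over ENRI and 0.97 over WENRC, while the medians of all tested genes were -0.0048 and -0.0073. In 8 of the 9 genes both RANKL libraries lay above both ENRI libraries, and in 8 both lay above both WENRC libraries, for which the shares over all genes were 32.4% and 34.1%. Between WENRC and ENRI only Bmp7 was called higher in WENRC and Bmp2 lower, with 14.6% of all genes called. That fit did not pair the libraries by mouse. With mouse as a block in the 4 libraries of these cultures, limma called 0 of the 9 genes and 124 of all 16563. Without either RANKL library, 1 gene, Smad6, was still called over ENRI and none was called over WENRC by limma, although 6 and 4 kept an unadjusted p under 0.05. The test as a whole lost most calls there: 64 to 111 of 16563 genes were still called over ENRI and 0 over WENRC.

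**Figure D1:**
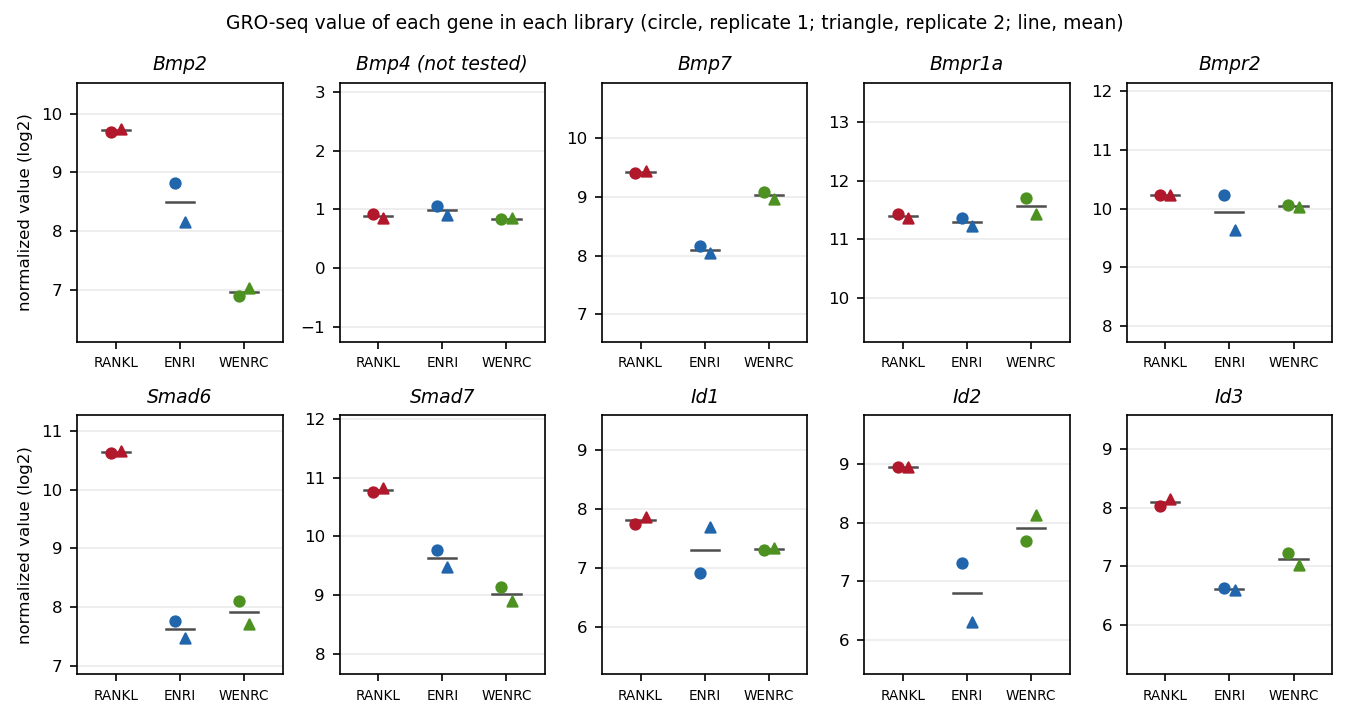
Deposited normalised GRO-seq level (log2, y axis) of the 10 genes in the 6 libraries, with circles for replicate 1, triangles for replicate 2 and lines at the means of the 3 cultures (x axis). Smad6 lies at 10.62 and 10.65 in RANKL and between 7.48 and 8.10 in the other 4 libraries, whereas Bmp4 lies at 0.84 to 1.06 in all 6.

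Among the ligand genes, Bmp2 showed a stepwise order with RANKL above ENRI and ENRI above WENRC. Bmp2 (NM_007553, chromosome 2, 133377895 to 133388632, plus strand, mm9) was at 9.69 and 9.74 in RANKL, 8.82 and 8.16 in ENRI, and 6.90 and 7.04 in WENRC. No culture overlapped another. The RANKL mean exceeded the ENRI mean by 1.22 (SE 0.23, limma adjusted p = 0.0192), a 2.33-fold difference, and the WENRC mean by 2.74 (SE 0.23, adjusted p = 0.00316), a 6.69-fold difference. In WENRC the level was lower than in ENRI by a log2 difference of -1.52 (SE 0.23, adjusted p = 0.0162), with -1.92 in mouse 1 and -1.12 in mouse 2. With mouse as a block in the 4 libraries of these cultures the adjusted p was 0.0762. The call over ENRI was lost without either RANKL library (adjusted p = 0.136 and 0.159) and without either WENRC library (0.0516 and 0.0511). The call over WENRC was lost without either RANKL library (0.0623 and 0.071). The WENRC difference from ENRI was lost without either RANKL library (0.0718 and 0.072) or either WENRC library (0.0958 and 0.121).

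Bmp7 was low in ENRI and high in both other cultures. Bmp7 (NM_007557, chromosome 2, 172693513 to 172765822, minus strand) was at 9.41 and 9.43 in RANKL, 8.16 and 8.04 in ENRI, and 9.08 and 8.97 in WENRC. RANKL exceeded ENRI by 1.32 (SE 0.13, limma adjusted p = 0.0037) and WENRC exceeded ENRI by 0.92 (SE 0.13, adjusted p = 0.0144), by 0.92 in mouse 1 and 0.93 in mouse 2. With mouse as a block in those 4 libraries the latter had an adjusted p of 0.0896. RANKL stood 0.40 above WENRC (SE 0.13) and was not called (adjusted p = 0.111), although the libraries did not overlap. That difference was called without ENRI replicate 1 (0.0344) or replicate 2 (0.0342), while the call over ENRI was lost without either RANKL library (0.0626 and 0.0724). The WENRC difference from ENRI was lost without either RANKL library (0.0723 and 0.0728) or either WENRC library (0.0886 and 0.113).

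Bmp4, whose product is made mainly by stromal cells in the intestine, was near the lower end of the table. Bmp4 (NM_001316360, chromosome 14, 47003200 to 47010344, minus strand) was at 0.92 and 0.85 in RANKL, 1.06 and 0.91 in ENRI, and 0.84 and 0.85 in WENRC, and was not tested. Its span overlaps that of Gm15217, and the handling of strand is not given in the sources used here. On a scale divided by gene length, Bmp2 was the highest of these 3 ligand genes in every culture, at log2 6.29 per kb in RANKL, 5.07 in ENRI and 3.55 in WENRC. Bmp7 followed at 3.25, 1.92 and 2.85 on the same scale. The summed level of 10 stromal markers, 2 of which passed the filter, was 9.55 to 9.61 in RANKL, 8.42 to 8.62 in ENRI and 8.11 to 8.73 in WENRC. Pdgfrb carried that sum, at 9.21 and 9.26 in RANKL, 6.90 and 7.68 in ENRI, and 7.12 and 6.44 in WENRC. Acta2, the other marker that passed, was not higher in RANKL, at 6.98 and 7.11 beside 7.59 and 7.26 in ENRI and 8 and 7.29 in WENRC, and Foxl1 and Lum were between -1.98 and -1.96 in all 6 libraries. Their part in the ligand values was not tested.

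H3K27me3 at the ligand genes differed in direction between Bmp2 and the other ligands. The region tables hold only regions with an authors' fold of at least 2, RANKL tags are pooled from both libraries, and WENRC tags come from 1 library, scaled by the authors. There is therefore no replicate check of any region, and the fold of a region is the authors'. Over Bmp2, 1 WENRC-higher region of 1535 bp (chr2:133378041-133379576, annotated as 5′ UTR) ran from 146 to 1681 bases downstream of the start site, with 16 tags in RANKL and 64.8 in WENRC (fold 4.05). The other 3 WENRC-higher regions named for Bmp2 lay 213 to 243 kb upstream, with folds of 3.42 to 3.90.

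Bmp4, in contrast, had RANKL-higher regions only. Of its 5 regions, 4 had their centre within 5 kb of the start site, and the 5 together covered 4379 bp with 340 RANKL tags and 142.2 WENRC tags. The one across the start site (chr14:47009747-47010539, from 195 bases upstream to 597 downstream) had 63 tags in RANKL and 22.5 in WENRC, the highest fold of the 5 at 2.80. A region of 1799 bp annotated as intron (chr14:47006624-47008423) had 167 and 72 tags (fold 2.32), and the other 2 within 5 kb had folds of 2.41 and 2.13. The Bmp4 promoter is shown because a region lies across the start site. It runs from 250 bases before to 10 after the start in RefSeq on GRCm38.p6 (chr14:46390660-46390919, minus strand). Capitals mark its single match to the 4-base Smad box GTCT or its complement AGAC, which 84.0% of 32851 promoters of that length hold.
Bmp4: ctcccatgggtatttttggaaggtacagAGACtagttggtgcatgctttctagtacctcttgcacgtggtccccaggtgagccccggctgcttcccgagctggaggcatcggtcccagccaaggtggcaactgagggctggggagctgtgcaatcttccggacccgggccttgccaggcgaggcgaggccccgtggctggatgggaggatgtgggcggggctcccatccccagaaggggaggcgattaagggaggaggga
The match lies 222 to 219 bases before the RefSeq start, which need not be the start of the mm9 table, and the window holds 11 CpG beside a median of 6 over all promoters.

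Bmp7 had 15 RANKL-higher regions and none higher in WENRC. A single one was within 5 kb of the start site, in the first part of the gene (chr2:172763112-172765054, intron, 768 to 2710 bases downstream), with 96 tags in RANKL and 45 in WENRC (fold 2.13). Another lay 8194 bases upstream, and 13 lay 91 to 184 kb from the start site, beyond the 3′ end of the gene. The highest fold, 3.52, belonged to a 500 bp region at chr2:172641503-172642003 with 19 and 5.4 tags. The 15 regions together covered 14788 bp with 767 RANKL tags and 334.8 WENRC tags.

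Neither receptor gene was called in any of the 3 comparisons. Bmpr1a (NM_009758, chromosome 14, 35224254 to 35315732, minus strand), the type I receptor gene, was at 11.44 and 11.37 in RANKL, 11.36 and 11.22 in ENRI, and 11.70 and 11.43 in WENRC. RANKL differed from ENRI by 0.12 (SE 0.16, limma adjusted p = 0.629) and from WENRC by -0.16 (SE 0.16, adjusted p = 0.553). Under quantile normalization the latter became -0.61 and was called (adjusted p = 0.0305), as was WENRC over ENRI at 0.67 (0.0213).

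Bmpr2 (NM_007561, chromosome 1, 59821123 to 59934925, plus strand), the type II receptor gene, was at 10.23 in both RANKL libraries, 10.23 and 9.64 in ENRI, and 10.06 and 10.03 in WENRC. Its differences were 0.29 over ENRI (SE 0.21, limma adjusted p = 0.358) and 0.19 over WENRC (SE 0.21, adjusted p = 0.608). The lower ENRI library was replicate 2, and without ENRI replicate 1 RANKL (0.59, adjusted p = 0.00868) and WENRC (0.40, adjusted p = 0.0385) were called above the one that was left. No H3K27me3 region of either table was named for Bmpr1a or Bmpr2. Per kb, Bmpr1a was at log2 4.89, 4.77 and 5.05 in RANKL, ENRI and WENRC, and Bmpr2 at 3.40, 3.11 and 3.22.

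Smad6 had the widest range of culture means of the 10 genes. Smad6 (NM_008542, chromosome 9, 63800883 to 63869866, minus strand) was at 10.62 and 10.65 in RANKL, 7.77 and 7.48 in ENRI, and 8.10 and 7.72 in WENRC. RANKL stood far above the other 2 cultures, which overlapped. The difference was 3.01 over ENRI (SE 0.19, limma adjusted p = 0.00145), an 8.03-fold difference, and 2.72 over WENRC (SE 0.19, adjusted p = 0.00181), a 6.59-fold difference. WENRC and ENRI differed by 0.29 (SE 0.19, adjusted p = 0.345). The call over ENRI held in all 15 other fits (adjusted p at most 0.0482), and the call over WENRC was lost only without RANKL replicate 1 (0.0546) or replicate 2 (0.0543), at differences of 2.73 and 2.71. The authors' deposited table gives 3.50 over ENRI and 3.13 over WENRC for Smad6.

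H3K27me3 was lower in RANKL over the first part of Smad6, just past its start site. A WENRC-higher region of 3833 bp (chr9:63865857-63869690), annotated as intron, covered 176 to 4009 bases downstream of the start site. It had 52 tags in RANKL and 255.7 in WENRC (fold 4.92). It was the widest region of the 10 genes. A second WENRC-higher region of 500 bp was centred 62834 bases into the gene (6 and 18.9 tags, fold 3.15), and 1 RANKL-higher region lay 89.3 kb from the start site, outside the gene (18 and 5.4 tags, fold 3.33). The promoter next to the wide region, which begins 176 bases past the start site, is shown from RefSeq on GRCm38.p6 (chr9:64022050-64022309, minus strand, 250 bases before to 10 after the start). Capitals mark the palindrome GTCTAGAC, the classical Smad-binding element made of 2 adjoining Smad boxes.
Smad6: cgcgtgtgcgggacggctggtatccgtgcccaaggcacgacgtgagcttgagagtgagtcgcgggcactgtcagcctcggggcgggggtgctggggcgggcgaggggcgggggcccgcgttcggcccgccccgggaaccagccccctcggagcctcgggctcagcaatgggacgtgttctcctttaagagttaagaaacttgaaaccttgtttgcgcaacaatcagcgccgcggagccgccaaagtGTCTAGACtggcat
The palindrome spans the start site, from base -4 to base 4, and 58 of 32851 promoters of that length (0.177%) hold one. The window has 27 CpG, against the median of 6. These matches describe letters and not bound sites.

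**Figure D2:**
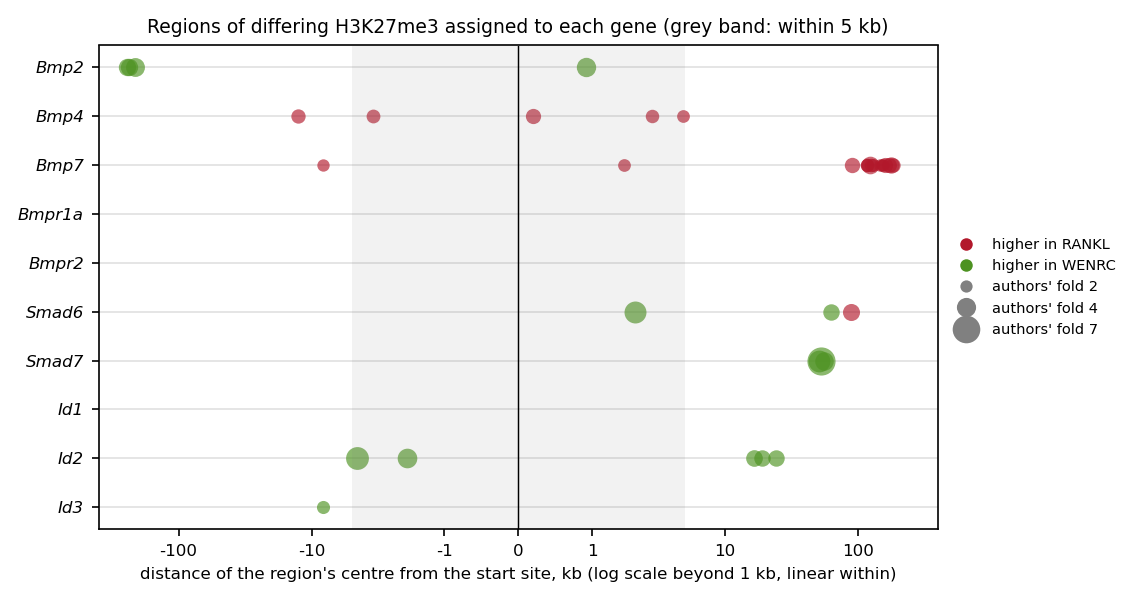
H3K27me3 regions named for the genes, by distance of the centre from the start site (x axis, kb, log scale beyond 1 kb) and authors' fold (point size), coloured by the culture with more tags. WENRC-higher regions lie near the start sites of Smad6, Bmp2 and Id2, and RANKL-higher regions near those of Bmp4 and Bmp7.

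Smad7, the second inhibitory Smad gene, was also higher in RANKL, by less. Smad7 (NM_001042660, chromosome 18, 75527019 to 75555588, plus strand) was at 10.75 and 10.82 in RANKL, 9.77 and 9.48 in ENRI, and 9.13 and 8.90 in WENRC, so that no culture overlapped another. The difference was 1.16 over ENRI (SE 0.16, limma adjusted p = 0.00794), or 2.24-fold, and 1.77 over WENRC (SE 0.16, adjusted p = 0.00355), or 3.41-fold. WENRC was -0.60 from ENRI (SE 0.16, adjusted p = 0.0566), with -0.64 in mouse 1 and -0.57 in mouse 2, and was not called. That difference was called without ENRI replicate 1 (0.043) or replicate 2 (0.0142), while both RANKL calls were lost without RANKL replicate 1 (0.0888 and 0.0756) or replicate 2 (0.109 and 0.0862). Smad7 had 3 WENRC-higher regions, all 51.1 to 55.2 kb from the start site and past the end of the gene, with 3 to 5 RANKL tags and 18.9 to 24.3 WENRC tags each. The highest fold, 7.20, was at chr18:75579772-75580409. Per kb, Smad7 was above Smad6 in all 3 cultures, at log2 5.95, 4.79 and 4.18 against 4.52, 1.52 and 1.80 in RANKL, ENRI and WENRC.

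**Figure D3:**
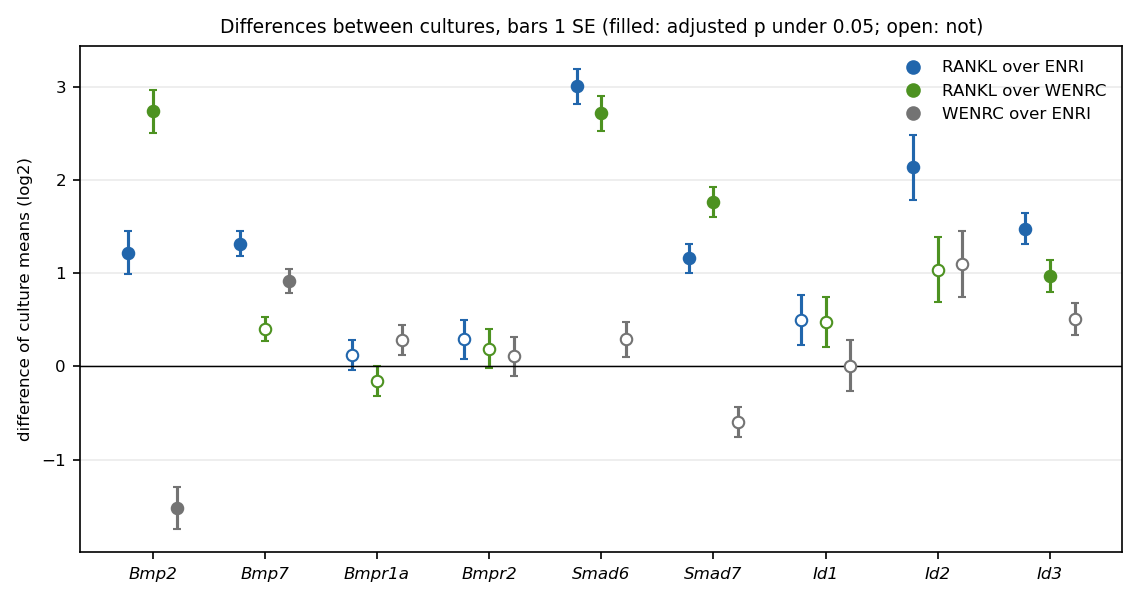
Log2 difference between culture means (y axis) for the 9 tested genes (x axis) in the 3 comparisons (colours), with bars of 1 SE and filled points where the adjusted p was under 0.05. Smad6 has the largest difference over ENRI (3.01), and Bmp2 (2.74) and Smad6 (2.72) the largest over WENRC.

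Calls differed among the Id genes. Id3 was called higher in RANKL than in both other cultures, Id2 than in ENRI alone, and Id1 in neither comparison. Over WENRC the difference of Id2 (1.04) was no smaller than that of Id3 (0.97). Id3 (NM_008321, chromosome 4, 135699737 to 135701307, plus strand) was at 8.03 and 8.15 in RANKL, 6.63 and 6.59 in ENRI, and 7.22 and 7.03 in WENRC. No culture overlapped another. RANKL exceeded ENRI by 1.48 (SE 0.17, limma adjusted p = 0.00469) and WENRC by 0.97 (SE 0.17, adjusted p = 0.0197). WENRC stood 0.51 above ENRI (SE 0.17, adjusted p = 0.0919), by 0.59 in mouse 1 and 0.44 in mouse 2. The call over ENRI was lost without RANKL replicate 1 (0.0627) or replicate 2 (0.0817). The call over WENRC was lost without either RANKL library (0.156 and 0.212) or either WENRC library (0.0938 and 0.143).

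Id2 (NM_010496, chromosome 12, 25778664 to 25780957, minus strand) was at 8.95 in both RANKL libraries, 7.31 and 6.30 in ENRI, and 7.69 and 8.13 in WENRC. The RANKL libraries lay above all 4 others, and the ENRI libraries, a full log2 unit apart, lay below both WENRC libraries. RANKL exceeded ENRI by 2.14 (SE 0.35, limma adjusted p = 0.0124), or 4.42-fold, a call lost without RANKL replicate 1 (0.108) or replicate 2 (0.118). The difference over WENRC, 1.04 (SE 0.35), was not called (adjusted p = 0.111), but was called when the ENRI libraries were left out of the fit (adjusted p = 0.00365) or 1 of them was (0.00469 without replicate 1 and 0.00404 without replicate 2). The authors' deposited table gives 1.26 over WENRC with an adjusted p of 2.69e-05 for Id2. WENRC stood 1.10 above ENRI (SE 0.35, adjusted p = 0.0859), by 0.37 in mouse 1 and 1.83 in mouse 2, and was called without ENRI replicate 1 (0.00136).

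Id1 (NM_010495, chromosome 2, 152561987 to 152563146, plus strand) was at 7.74 and 7.87 in RANKL, 6.92 and 7.70 in ENRI, and 7.31 and 7.33 in WENRC. The ENRI libraries spanned those of WENRC. RANKL stood 0.50 above ENRI (SE 0.27, limma adjusted p = 0.246) and 0.48 above WENRC (SE 0.27, adjusted p = 0.3). The former was 0.10 without ENRI replicate 1 and 0.89 without ENRI replicate 2, and the latter stayed at 0.48 without either. The WENRC difference from ENRI was 0.01 (SE 0.27, adjusted p = 0.986) and differed in sign between mouse 1 (0.40) and mouse 2 (-0.37). Whether the 3 Id genes differ from each other in their response to culture was not tested. Per kb, the Id genes were above all other members in RANKL, at log2 7.59 for Id1, 7.75 for Id2 and 7.44 for Id3, and in ENRI they were at 7.10, 5.61 and 5.96.

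Of the Id genes, Id2 alone had H3K27me3 regions within 5 kb of the start site, and both were higher in WENRC. The wider one (chr12:25784578-25786494, 1916 bp, intergenic) was centred 4579 bases upstream of the start site, with 15 tags in RANKL and 78.3 in WENRC (fold 5.22). The nearer one (chr12:25782619-25783119) was centred 1912 bases upstream, with 5 and 20.7 tags (fold 4.14). A further 3 regions lay 16.5 to 24.2 kb past the start site, with folds of 3.15 to 3.22. Id3 had 1 WENRC-higher region, 8189 bases upstream (chr4:135691298-135691798, 15 and 33.3 tags, fold 2.22), and no region was named for Id1.

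The promoters of Id2 and Id3, both higher in RANKL than in ENRI, are shown from RefSeq on GRCm38.p6 (chr12:25096083-25096342, minus strand, and chr4:136143572-136143831, plus strand). Capitals mark Smad boxes (GTCT or AGAC) and the GC-rich element GGCGCC, to which BMP-activated Smads bind.
Id2: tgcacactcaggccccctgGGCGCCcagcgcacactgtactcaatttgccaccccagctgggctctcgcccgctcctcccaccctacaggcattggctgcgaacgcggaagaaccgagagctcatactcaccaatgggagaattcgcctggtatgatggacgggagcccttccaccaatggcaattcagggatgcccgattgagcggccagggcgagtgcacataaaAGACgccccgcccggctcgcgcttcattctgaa
Id3: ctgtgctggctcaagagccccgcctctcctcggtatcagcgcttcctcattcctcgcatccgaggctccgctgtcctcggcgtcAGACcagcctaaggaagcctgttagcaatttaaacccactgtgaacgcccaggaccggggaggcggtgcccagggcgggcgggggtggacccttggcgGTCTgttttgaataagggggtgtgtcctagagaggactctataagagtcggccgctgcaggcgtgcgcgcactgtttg
Id2 has GGCGCC at -231 to -226 and a Smad box at -23 to -20, and Id3 has Smad boxes at -166 to -163 and -68 to -65. GGCGCC occurs in 9.96% of promoters of that length, and the median promoter holds 2 Smad boxes. Of the 6 members with a promoter, Bmpr1a and Bmpr2, called in no comparison, also hold GGCGCC, while Bmp4, Id3 and Smad6 hold none. A link between these matches and the GRO-seq levels was not tested. Id2 and Id3 have 18 and 19 CpG in the window.

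Across the 10 genes, 5 had a WENRC-higher region (Bmp2, Id2, Id3, Smad6 and Smad7) and 3 a RANKL-higher one (Bmp4, Bmp7 and Smad6), where 24% and 33.7% of the 24505 genes of the GRO-seq table had one. Within 5 kb of the start site 3 had a WENRC-higher region (Bmp2, Id2 and Smad6) and 2 a RANKL-higher one (Bmp4 and Bmp7), beside 5.44% and 19.1% of all genes. The median fold of the WENRC-higher regions was 3.78, against 3.30 over that whole table, and that of the RANKL-higher regions was 2.32, against 2.92. The 4 genes called higher in RANKL than in WENRC all had at least 1 WENRC-higher region, for Bmp2 and Smad6 within 5 kb and for Id3 and Smad7 farther away. Of the 3 members with such a region at 5 kb or less, Bmp2 and Smad6 had that call and Id2 did not. Of all tested genes, 829 had one there. The RANKL level was called above that of WENRC in 161 of them (19.4%). In all, 1412 tested genes had this call. Both counts take in genes, such as the antagonist gene Sost, that passed the filter through the RANKL libraries alone. How many of the 1412 had such a region at any distance was not counted, so the overlap of the 4 genes has no share beside it. A link between regions and calls was not tested.

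The other genes of the pathway were taken from 7 lists of 66 genes, of which 49 were tested. Sost, an antagonist gene, passed the filter through the RANKL libraries alone, so that it had to differ, and it was left out of the counts here after its values were seen. Of the other 48, 6 were called higher and 1 lower over ENRI, 4 higher and none lower over WENRC, and 1 higher and 1 lower in WENRC over ENRI. Their median differences were -0.09, 0.08 and -0.08. Of all tested genes, 10.4% and 10.5% were called higher and lower over ENRI, and 8.53% and 3.62% over WENRC. In WENRC over ENRI the shares were 4.85% and 9.74%. Genes that passed the filter through the RANKL libraries alone were not left out of these shares. None of the 8 other Smad and Smad regulator genes, Smad1, Smad4 and Smad5 among them, was called by limma in any comparison, with 1, 1 and 4 at an unadjusted p under 0.05 and median differences of -0.05, 0.35 and -0.38. Without RANKL replicate 1 limma called none of the 48 over ENRI or WENRC, with 7 and 5 at an unadjusted p under 0.05, and without RANKL replicate 2 it called none, with 6 and 4.

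Of 11 other ligand genes 6 were tested, of which Bmp6 was called higher and Bmp3 lower in RANKL than in ENRI. Bmp6, a ligand known for its part in hepatic iron sensing, was at 9.18 and 9.16 in RANKL, 7.25 and 7.37 in ENRI, and 7.59 and 7.62 in WENRC. It was higher in RANKL by 1.86 over ENRI (SE 0.14, limma adjusted p = 0.00215) and by 1.57 over WENRC (SE 0.14, adjusted p = 0.00355), though its span overlaps Txndc5 and 4930579J19Rik. Bmp3, whose product opposes other BMPs, was at 5.73 and 4.53 in RANKL, 8.11 and 9.42 in ENRI, and 6.19 and 6.70 in WENRC. It was lower than in ENRI both in RANKL, at -3.63 (SE 0.56, adjusted p = 0.0108), and in WENRC, at -2.31 (SE 0.56, adjusted p = 0.0447). Without RANKL replicate 1 or replicate 2 the calls over ENRI were lost for Bmp6 (0.0547 and 0.0555) and Bmp3 (0.0566 and 0.0945), as was the call of Bmp6 over WENRC (0.0771 and 0.0879). The Bmp3 difference between WENRC and ENRI was lost with mouse as a block in the 4 libraries of these cultures (adjusted p = 0.0529), without either WENRC library (0.208 and 0.178) and without either RANKL library (0.0866 and 0.0857).

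All 9 other receptor and co-receptor genes were tested. Of them 2 were called over ENRI, 1 over WENRC and 1 in WENRC over ENRI. Of all tested genes, 20.9%, 12.1% and 14.6% were called in these comparisons. Acvr2b, a type II receptor gene shared with activins, was at 9.41 in both RANKL libraries and between 8.32 and 8.47 in the other 4, a difference of 1.01 over ENRI (SE 0.13, limma adjusted p = 0.00706) and 1.0 over WENRC (SE 0.13, adjusted p = 0.00993). The co-receptor gene Rgmb was low in ENRI, at 9.01 and 9.29, beside 10.44 and 10.47 in RANKL (1.31, SE 0.17, adjusted p = 0.00647) and 10.67 and 10.98 in WENRC (1.68, SE 0.17, adjusted p = 0.0084, and 0.0529 with mouse as a block in the ENRI and WENRC libraries). Without RANKL replicate 1 or 2 the calls of Acvr2b over ENRI (0.0941 and 0.104) and over WENRC (0.131 and 0.151) and of Rgmb over ENRI (0.082 and 0.0939) were lost. Leaving out WENRC replicate 1 or 2 also ended the call of Acvr2b over WENRC (0.0791 and 0.0769) and that of Rgmb between WENRC and ENRI (0.0535 and 0.0857), which was lost without RANKL replicate 1 or 2 as well (0.0577 and 0.0581).

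Of 15 antagonist genes 9 were tested. Leaving Sost aside, limma called none of the 8 others in any comparison, with 0, 1 and 1 at an unadjusted p under 0.05 over ENRI, over WENRC and in WENRC over ENRI. Sost was at 4.95 and 5.12 in RANKL, 2.95 and 2.92 in ENRI, and 2.94 and 2.96 in WENRC. Its values are a description, and no test is given. The classical antagonist genes Nog (-0.47 to -0.38), Grem1 (0.90 to 1.08) and Chrd (0.16 to 0.28) were below the filter in all libraries. Among 4 tested other target genes Atoh8 was called, at 7.04 and 6.71 in RANKL, 4.38 and 4.92 in ENRI, and 5.40 and 5.62 in WENRC (2.22 over ENRI, SE 0.26, adjusted p = 0.00493, and 1.37 over WENRC, SE 0.26, adjusted p = 0.0254). The E protein gene Tcf3, a partner that ID proteins bind, was 0.60 higher in RANKL than in ENRI (SE 0.14, adjusted p = 0.0303). In the TGF-beta and activin list of 10 tested genes, the type I receptor gene Tgfbr1 was called, 0.93 above ENRI (SE 0.13, adjusted p = 0.00752) and 0.79 above WENRC (SE 0.13, adjusted p = 0.0154). All of these calls were lost without either RANKL library. The adjusted p values over ENRI without RANKL replicate 1 were 0.0668, 0.153 and 0.106 for Atoh8, Tcf3 and Tgfbr1, and without replicate 2 they were 0.0668, 0.252 and 0.101. Over WENRC they were 0.203 and 0.179 for Atoh8 and Tgfbr1 without replicate 1, and 0.161 and 0.171 without replicate 2. Without WENRC replicate 1 or 2 Atoh8 (0.156 and 0.129) and Tgfbr1 (0.105 and 0.0935) were not called over WENRC, nor Tcf3 over ENRI (0.0658 and 0.0652).

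**Figure D4:**
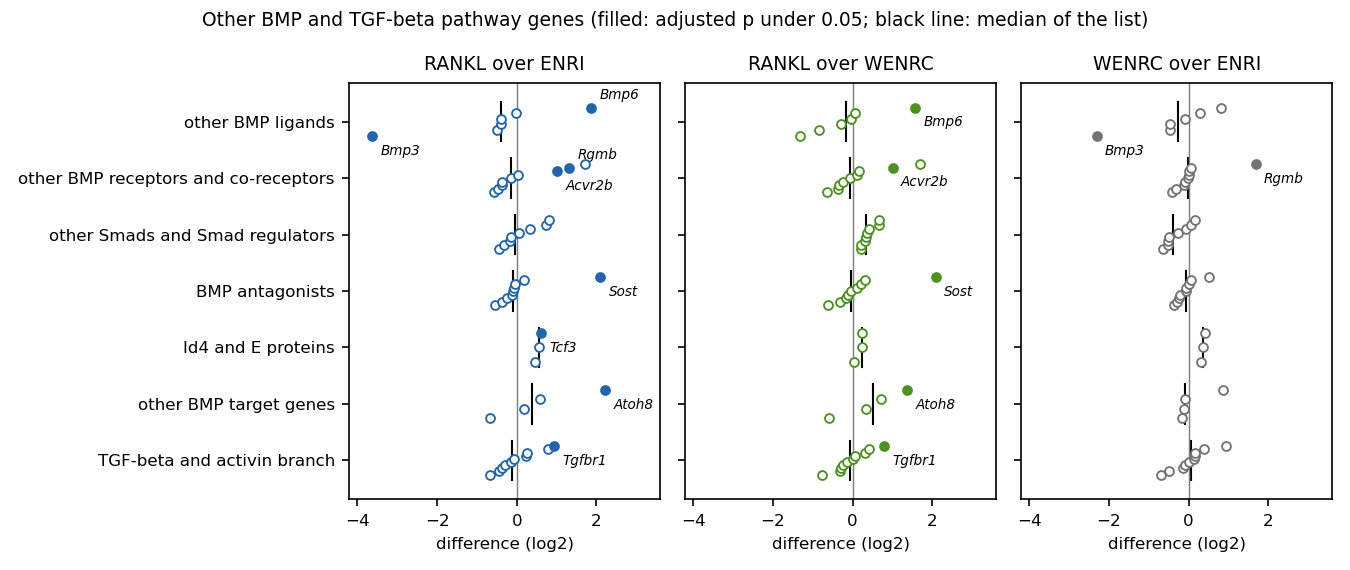
Log2 differences (x axis) of the 49 tested genes of the 7 pathway lists (rows) in the 3 comparisons, filled where the adjusted p was under 0.05, with black lines at list medians. Most genes lie near 0, and Bmp6 and Atoh8 stand above while Bmp3 stands below in RANKL against ENRI. Sost, drawn filled, passed the filter through the RANKL libraries alone.

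The genes whose profiles over the 6 libraries were nearest to those of the 2 members with the widest range of culture means were found by Euclidean distance, each profile centred on its own mean. Nearest to Smad6 were Cd247 at 0.388, Cep85 at 0.431 and C1qtnf6 at 0.452, where the median distance of all tested genes was 3.42. Cd247 was at 10.31 and 10.25 in RANKL and between 7.5 and 7.88 in the other libraries, and its span overlaps Pou2f1. Nearest to Bmp2 were St3gal1 at 0.307, Ccl6 at 0.472 and E230016K23Rik at 0.531, with a median of 2.91. St3gal1 was at 10.10 and 10.06 in RANKL, 8.93 and 8.46 in ENRI, and 7.41 and 7.44 in WENRC. Ccl6 and E230016K23Rik overlap each other.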

How the data were processed

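GRO-seq values were the authors' deposited log2 levels of 24505 genes in 6 libraries, counted over whole RefSeq genes of mm9 with HOMER and then compared with its differential expression script, per the file headers. The transform behind the log2 scale is not named, strand handling is not given, and read depth is unknown for GRO-seq. Bowtie2 2.3.4.1, HOMER and DESeq2 are named in the submitters' processing notes. The deposited H3K27me3 tables give, per region, the authors' tag counts, scaled tag signal, normalised tag score, fold and p-value (at most 9.87e-05), with WENRC tags scaled by 0.9 and a floor of 0.5 tags. A region is named for a gene by the authors' nearest-gene annotation, and 12 rows with no gene were left out.

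Genes with a value of at least log2 of 10 in 2 or more libraries (16563) entered limma 3.58.1 in R 4.3.3, with 3 culture means, a variance trend and Benjamini-Hochberg adjustment. The script was tested on simulated data. Alternatives were other filters, scalings and variance models, a replicate block, and leaving out each library. The main fit did not pair libraries by mouse. Only the replicate block of the alternatives paired ENRI and WENRC libraries, by the mouse named in the labels (correlation of deviations 0.414). RANKL numbers were taken as numbers only (-0.205 and -0.323). The members and lists were chosen with earlier results of these data known. Named beyond the 10 members were list genes called in a comparison (at most 4 a list), 3 nearest profiles for each of 2 members, regions within 5 kb and the highest fold per gene. A promoter was found for 6 of the 10 members. Those of Bmp4, Smad6, Id2 and Id3 are printed, and those of Bmpr1a and Bmpr2 are not.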

Additional observations from a re-analysis of the deposited data

How the results depend on the processing

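The number of the 9 tested genes called in RANKL over ENRI (6) ranged from 1 to 7 when 1 library was left out, that over WENRC (4) from 0 to 7, and that in WENRC over ENRI (2) from 0 to 5. The lowest values came without a RANKL library, and for WENRC over ENRI also without a WENRC library. The number of all tested genes called also changed widely between these fits, so the ranges are not particular to the 9 genes. Without either ENRI library, more of all tested genes were called in each comparison than in the main fit. Calls of single genes gained there are therefore not particular to those genes. A fit of only the 4 libraries compared called 7 over WENRC and 0 in WENRC over ENRI. Limma with the replicate block in those 4 libraries also called 0 in WENRC over ENRI, with 4 of 9 genes at an unadjusted p under 0.05 in both fits. Of all 16563 tested genes, the fit of only the 4 libraries called 5194 over WENRC, against 2012 in the main fit. In WENRC over ENRI it called 0 of all genes, and the block in 4 libraries called 124. With the replicate block in all 6 libraries, which also pairs the RANKL libraries by number, the counts were 6, 4 and 2, and no call of a member changed. Upper-quartile recentring and quantile normalization each called 4 in WENRC over ENRI, where they called 3043 and 3157 of all genes, against 2416 in the main fit. The authors' deposited adjusted p gives 6, 5 and 2 of these genes.

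Upper-quartile recentring moved the median difference of all tested genes to -0.12 over WENRC and to 0.10 in WENRC over ENRI, and the share of calls that were higher from 70.2% to 53.3% and from 33.2% to 54.1%. With quantile normalization these shares were 58.7% and 51.7%. Of the 49 tested pathway list genes, Sost included, 14 were called over WENRC in the fit of only the 4 libraries, against 5 in that of all 6. Of all 16563 tested genes, these fits called 5194 and 2012, so the rise was not particular to the list genes. In WENRC over ENRI 5 list genes were called under quantile normalization, 4 under upper-quartile recentring, 0 by limma in the fit of only the 4 libraries, where 6 had an unadjusted p under 0.05, and 1 with the replicate block in all 6, beside 2 in the fit of all 6. In the same order, 3157, 3043, 0, 1506 and 2416 of all tested genes were called.

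Small differences changed sign for 2 genes. Without 1 library, Bmpr2 ranged from -0.0021 to 0.59 over ENRI and from -0.19 to 0.40 in WENRC over ENRI, both lowest without ENRI replicate 2 and highest without ENRI replicate 1. It was -0.035 over WENRC under quantile normalization. Id1 in WENRC over ENRI ranged from -0.38 without ENRI replicate 1 to 0.40 without ENRI replicate 2, and was -0.034 under quantile normalization and -0.062 in the authors' deposited table. None of the 6 reversed values was called. Among the other values of single genes under an alternative, 368 kept their direction and side of the threshold, 23 became called and 35 were no longer called. The cause was not tested.

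Of the 21 RANKL-higher regions, 0 had a fold of at least 4, 7 lay within 50 kb and 5 within 5 kb of the start site. Of the 15 WENRC-higher regions, 6 had a fold of at least 4, 8 lay within 50 kb, 4 within 5 kb and 9 had at least 20 tags in WENRC. Over all genes, 13.4% of RANKL-higher and 26.7% of WENRC-higher regions had a fold of at least 4. Within 5 kb lay 7595 of all 35798 RANKL-higher regions and 1587 of all 13607 WENRC-higher ones. The single WENRC ChIP library and the authors' fold minimum of 2 limit what the regions can show.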

Other observations

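Regions of both H3K27me3 tables were assigned to genes of the 7 pathway lists: 32 of 66 genes (48.5%) had a RANKL-higher region at 5 kb or less from the start site and 11 of 66 (16.7%) a WENRC-higher one, beside 19.1% and 5.44% of all genes in the GRO-seq table. These shares are a description, with no test. Of the 15 BMP antagonist genes, 10 had such a RANKL-higher region, 17 regions in all with authors' folds of 2.15 to 4.67, and 5 of those 10 genes were below the GRO-seq filter. Nog, which encodes the secreted antagonist noggin, had one at its start site (60 RANKL tags and 21.6 WENRC tags, fold 2.78), and Chrd, which encodes chordin, had one with 84 and 36 tags (fold 2.33). Both genes were named here after their values were seen.

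Leaving aside Sost, which passed the GRO-seq filter through RANKL alone, 4 list genes had a RANKL level called above that of WENRC. Of these, 2 (Bmp6 and Atoh8) had WENRC-higher regions centred 5 kb or less from the start site and 2 (Acvr2b and Tgfbr1) a RANKL-higher one. At Atoh8 the wider of these regions had 15 RANKL tags and 55.8 WENRC tags (fold 3.72). At Acvr2b the region had 18 RANKL tags and 3.6 WENRC tags (fold 5), beside a GRO-seq level 1.0 higher in RANKL. These counts have no replicate check.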
